A study of Mus musculus with 17 samples.

Results

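The 10 neuropeptide genes Sst, Vip, Npy, Cck, Penk, Pdyn, Tac1, Tac2, Crh and Adcyap1 were taken by symbol from the 26131 gene rows of a single-nucleus RNA count matrix, in which each had 1 row. They were described in 177175 of the 284074 nuclei, those that the authors labelled neurons in 13 of their clusters, 2 of which (17 and 18) were led by glial genes. The nuclei came from the posterior brain of 17 female mice, 2.3 months old and homozygous for a human transferrin receptor knock-in (strain Human TfR knock-in, genotype hTfR KI HOM), an allele that the control mice carried too. Mice were dosed intravenously 4 times over 24 days and killed 72 h after the last dose. The 4 groups were saline (n = 4), an unconjugated antisense oligonucleotide against Malat1 (Malat1 ASO, 2 mg/kg, n = 4), the oligonucleotide carried by an anti-transferrin receptor antibody (anti-TfR:Malat1, 50 mg/kg, n = 6) and OTV:Malat1, a conjugate with an Fc domain engineered to bind the receptor (50 mg/kg, n = 3). The study compared knockdown of Malat1 between the conjugates. None of the 10 genes was a target, and the question here was where they were detected and whether their levels differed between treatments.

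Neuropeptides are made as longer precursors, cut and modified in dense-core vesicles, and released to act on G protein-coupled receptors. In the cortex and hippocampus, Sst (somatostatin), Npy (neuropeptide Y), Vip (vasoactive intestinal peptide), Crh (corticotropin-releasing hormone) and Tac2 (neurokinin B) are known from subsets of GABAergic interneurons, while Cck (cholecystokinin) and Adcyap1 (PACAP) are also made by glutamatergic neurons. In the striatum, Penk (enkephalin precursor) is a gene of the projection neurons with the Drd2 dopamine receptor, and Tac1 (substance P) and Pdyn (dynorphin precursor) are genes of those with Drd1.

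In GENCODE M21 (GRCm38) all 10 were annotated as protein-coding genes. Sst lay at chr16:23889573-23890958 (minus strand), Vip at chr10:5639218-5647617 (plus), Npy at chr6:49822710-49829507 (plus), Cck at chr9:121489824-121495694 (minus) and Penk at chr4:4133531-4138819 (minus). Pdyn lay at chr2:129686565-129699844 (minus), Tac1 at chr6:7554879-7565834 (plus), Tac2 at chr10:127724478-127731768 (plus), Crh at chr3:19693401-19695396 (minus) and Adcyap1 at chr17:93199017-93206537 (plus).

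RefSeq promoter sequences of GRCm38.p6, from 250 bases before to 50 after a start site, were at hand for 8 of the 10 genes (10 entries, all but Crh and Penk). They are shown because cyclic AMP response elements, the sites of CREB-family factors, are a known feature of neuropeptide promoters. Each was searched on both strands for the palindrome TGACGTCA, its shorter part TGACGT and the variant TGCGTCA. The capitals in the stretches below mark the match, each running 5′ to 3′ on the gene's strand with 20 bases on either side:
Sst, chr16:23890865-23890912, minus strand: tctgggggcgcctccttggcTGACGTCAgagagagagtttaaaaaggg
Vip, chr10:5639119-5639164, plus strand: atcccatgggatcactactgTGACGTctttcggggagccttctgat
Adcyap1, chr17:93198906-93198951, plus strand: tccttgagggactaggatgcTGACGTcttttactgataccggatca
Cck, chr9:121495717-121495763, minus strand: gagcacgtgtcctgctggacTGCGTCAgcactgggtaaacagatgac
Tac1, chr6:7554842-7554888, plus strand: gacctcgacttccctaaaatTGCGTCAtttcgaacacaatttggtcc

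The palindrome stood 48 bases before the RefSeq start site of Sst, the only member with it, against 1.79% of all 32851 promoter entries. That start site lies 114 bases after the start of the GENCODE gene, and the palindrome is within that gene as well. Distances here are from RefSeq start sites, which equal the GENCODE ones for Vip and Cck and for the Adcyap1 entry used, and lie 182 bases after it for Tac1. TGACGT, which is part of the palindrome, was held by Sst, Vip (79 bases before its start site) and Adcyap1 (91 bases), against 7.51% of all entries. TGCGTCA was held by Cck (49 bases) and Tac1 (199 bases), against 2.12%. The Npy, Pdyn and Tac2 entries held none of the 3 motifs. A match is a description of the letters, not evidence of a bound site.

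The matrix held between 13841 and 18365 nuclei per mouse and between 46964749 and 70547598 UMIs (unique molecular identifiers, 1 per captured RNA molecule) in the neurons of a mouse. The median neuron held 4856 UMIs and the median oligodendrocyte 1279. Clusters 1 and 4 carried Gad1, Gad2 and Slc32a1 and are called GABAergic-like, but both also held Slc17a6, a glutamate transporter gene, at 71.5 and 57.9 CPM, the highest after cluster 12 (195.5 CPM). Cluster 10 carried them with Meis2 and Drd1 and is called Meis2 GABAergic-like. Clusters 3 (Rorb, Rspo1), 7 (Foxp2, Tle4), 9 (Prox1, Dsp, Glis3) and 12 (Tcf7l2, Prkcd) resembled middle-layer cortical, deep-layer cortical, dentate granule and thalamic neurons, and clusters 5, 6, 8, 16, 17 and 18 are called by number. The leading genes of cluster 17 were those of oligodendrocyte precursors (Pdgfra at 190.1 CPM, Vcan, Cspg4), and cluster 18 was led by Inpp5d, Ly86 and Siglech and carried the microglial Csf1r at 99.8 CPM. Only 61.2% and 65.2% of the nuclei of these 2 clusters were labelled neurons. The authors' doublet calls, which were left in, covered 44.9% of cluster 4, 62.0% of cluster 6, 97.0% of cluster 17 and 85.4% of cluster 18. Of the cell barcodes, 10044 of 273792 occurred in more than 1 library, 50 to 110 for each pair of libraries. Malat1, the targeted RNA, had a mean of 63866 counts per 1000000 (CPM) in saline neurons, 61567 after Malat1 ASO, 58094 after anti-TfR:Malat1 and 42874 after OTV:Malat1. In oligodendrocytes its mean CPM was 102140, 97330, 69655 and 16681 in the same order. In neurons the groups overlapped, as saline replicate 4 (42835 CPM) was below OTV:Malat1 replicates 1 and 2 (45972 and 47702). The log2 difference of OTV:Malat1 from saline in neurons was -0.64 (SE 0.20, unadjusted p 0.0050, adjusted p 0.9996, edgeR), so Malat1 was not called there. In oligodendrocytes the difference was -2.79 (SE 0.19, adjusted p 8.7e-08, edgeR).

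Transcripts of all 10 genes were also counted in oligodendrocyte nuclei, the class taken here to lack them, and the levels were read against that background. Per 1000 nuclei, neurons held 113.8 UMIs of Sst and oligodendrocytes 76.8. For Vip the pair was 59.0 and 30.1, for Npy 63.9 and 40.9, for Cck 311.7 and 198.9, and for Tac1 46.9 and 26.5. Penk differed more, with 84.6 UMIs per 1000 neurons and 26.3 per 1000 oligodendrocytes, as did Pdyn with 10.3 and 1.67. Tac2 (16.02 and 8.93), Crh (8.27 and 2.75) and Adcyap1 (23.7 and 6.20) completed the set. Neurons held more UMIs per nucleus of each gene than oligodendrocytes in 17 of 17 mice. The oligodendrocyte level was 16.3% of the neuron level for Pdyn at the lowest and 67.5% for Sst at the highest. Oligodendrocyte nuclei hold fewer UMIs, and as CPM the order turned for 8 of the 10 genes, for example Sst at 21.4 CPM in neurons and 53.6 in oligodendrocytes. Pdyn (1.94 against 1.17 CPM) and Adcyap1 (4.46 against 4.33) were the 2 that stayed higher in neurons.

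The genes with the most background UMIs had similar shares of it across glial classes. Sst contributed 18.3% of the UMIs of the 10 genes in oligodendrocytes, 19.1% in microglia and 16.9% in astrocytes, and Cck 47.5%, 48.4% and 48.9%. Rare genes varied more: Pdyn contributed 0.399%, 0.176% and 0.702% and Crh 0.656%, 0.352% and 1.03% in the same order, from 6 and 12 UMIs in microglia and 13 and 19 in astrocytes. Sst was detected (1 UMI or more) in 8.80% of neurons and 7.28% of oligodendrocytes, Cck in 25.1% and 17.5%, and Penk in 5.31% and 2.55%.

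**Figure D1:**
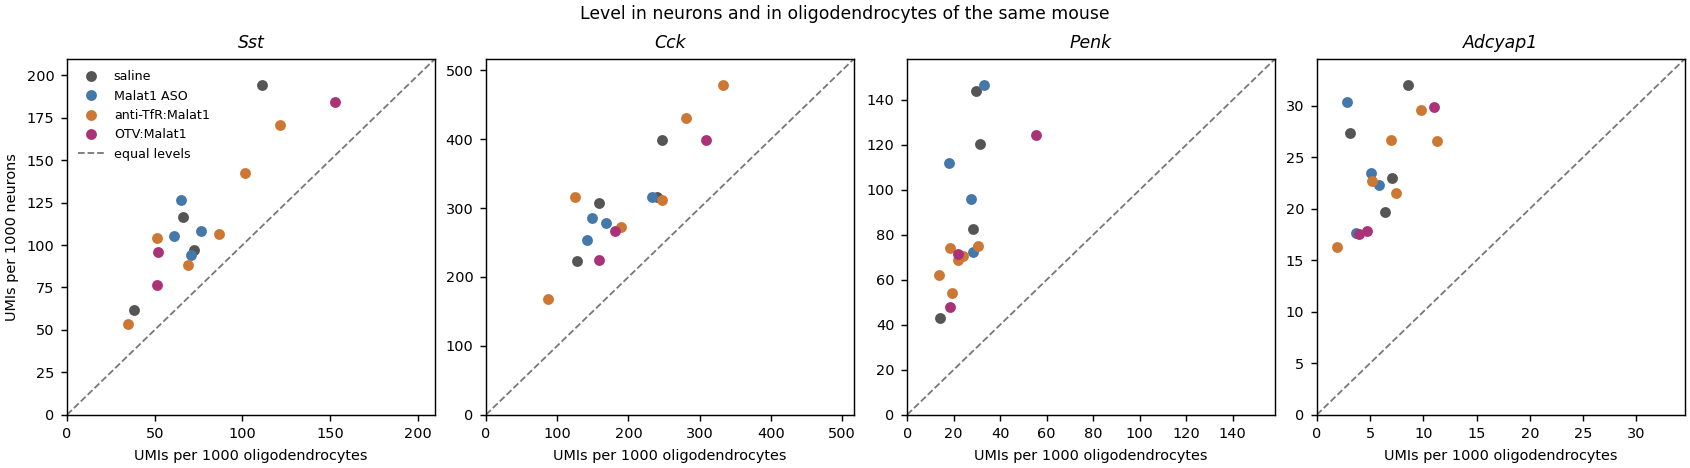
UMIs per 1000 neurons against UMIs per 1000 oligodendrocytes for Sst, Cck, Penk and Adcyap1, with 1 point per mouse coloured by treatment and a dashed line of equal levels. All 17 mice lie above the line.

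Where the genes stood above that background differed between them. Sst, Vip, Tac2 and Crh exceeded the oligodendrocyte level of the same mouse in every mouse in 2 of the 13 clusters only, the GABAergic-like clusters 1 and 4. Sst reached 261.2 UMIs per 1000 nuclei in cluster 4 and 159.3 in cluster 1, while 7 of the clusters were below the oligodendrocytes. Vip reached 144.1 in cluster 1 and 77.5 in cluster 4. Cluster 18 held 75.5 UMIs of Vip per 1000 nuclei, but 33.1 without doublets, where cluster 4 held 54.6 and cluster 1 140.8. Npy, above background in clusters 4, 1 and 6, reached 140.3 in cluster 4 and 90.6 in cluster 1. Tac2 reached 31.8 and Crh 16.01 per 1000 nuclei in cluster 1, against 27.7 and 13.04 in cluster 4. Vip in cluster 1, at 156 ± 76.7 UMIs per 1000 nuclei (SD, n = 17), was beyond cluster 4 (73.0 ± 34.2) by more than the larger SD, but not beyond cluster 18 (84.1 ± 98.0). For Sst, Npy, Tac2 and Crh the first cluster was not beyond the second by more than the larger SD over the 17 mice. For Sst the means were 244 ± 84.3 UMIs per 1000 nuclei (SD, n = 17) in cluster 4 and 160 ± 46.8 in cluster 1. Nuclei of cluster 4 were deeper, with a median of 6420 UMIs against 3572 in cluster 1, and as CPM the order turned, with Sst at 38.9 in cluster 4 and 44.3 in cluster 1, and Npy at 20.9 and 25.2.

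The opioid genes Penk and Pdyn and the tachykinin gene Tac1, unlike Tac2, had a different first cluster, the Meis2 GABAergic-like cluster 10. Penk was at 535 ± 169 UMIs per 1000 nuclei (SD, n = 17) in cluster 10 and at 80.0 ± 21.0 in cluster 4, the next. Pdyn was at 49.5 ± 22.2 in cluster 10 and 16.1 ± 4.89 in cluster 9, the dentate granule-like one. Tac1 was at 140 ± 61.9 in cluster 10 and 76.7 ± 22.02 in cluster 4. For these 3 genes the first cluster stood apart from the next in the order of means over mice by more than the larger SD. Penk is also among the 10 genes that lead cluster 10, beside Drd2, Adora2a and Rgs9. The clusters were made from these nuclei and their genes, so levels by cluster are a description without a test. Pdyn exceeded the oligodendrocyte level in every mouse in clusters 10, 9, 4, 1 and 5, Penk in 10, 4, 5, 6, 1 and 9, and Tac1 in 10, 4 and 1.

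By UMIs per nucleus, Cck and Adcyap1 had their first cluster outside the GABAergic-like ones, although clusters 1 and 4 held 38.4% of the UMIs of Adcyap1 and 24.0% of those of Cck in neurons. Cck was at 480.0 UMIs per 1000 nuclei in cluster 6, 404.1 in cluster 3, 403.2 in cluster 5, 392.4 in cluster 8 and 382.2 in cluster 12. Successive clusters in that order did not differ beyond their SD (470 ± 115 in cluster 6 and 409 ± 101 in cluster 3). The order of its clusters changed with thinning: cluster 6 had the highest level and the highest unthinned share of positive nuclei, while after thinning to 1000 UMIs clusters 16 (13.7%) and 8 (10.1%) came first. Its lowest cluster was still 1.10 times the oligodendrocyte level. Adcyap1 was at 40.7 per 1000 nuclei in cluster 3, 37.4 in cluster 4, 36.2 in cluster 6 and 26.8 in cluster 8, against 6.20 in oligodendrocytes and 6.19 in cluster 9. Its first and second clusters did not differ beyond their SD (42.0 ± 12.2 in cluster 3 and 35.5 ± 8.22 in cluster 4), and by the share of nuclei with 2 or more UMIs cluster 4 came first (0.425%, against 0.266% in cluster 3).

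**Figure D2:**
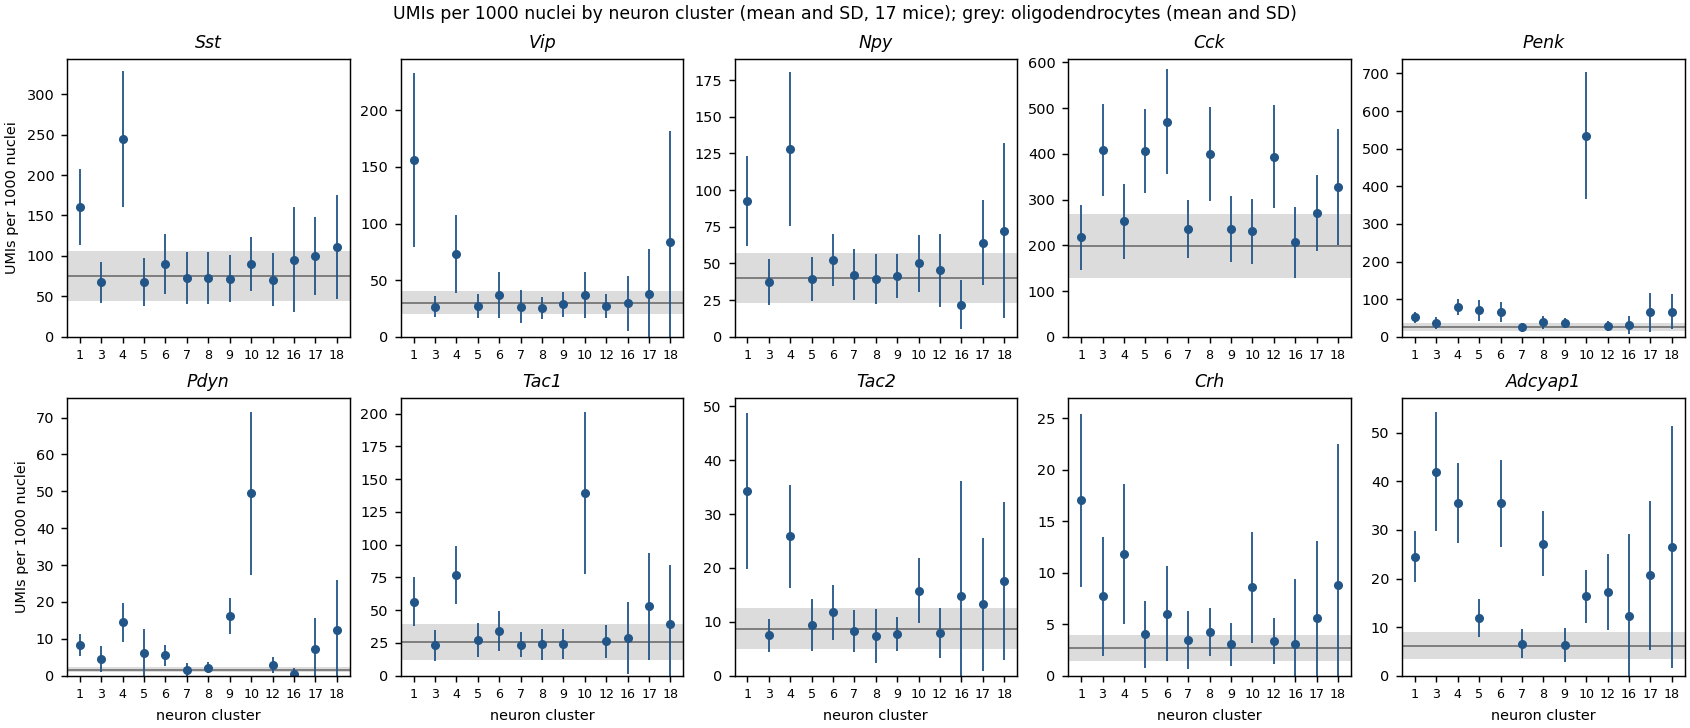
UMIs per 1000 nuclei (y axis) of each gene by neuron cluster (x axis), as the mean and SD over 17 mice, with the mean and SD in oligodendrocytes in grey. Penk stands out in cluster 10 (535 ± 169), Sst, Npy, Tac2 and Crh are highest in clusters 1 and 4, Vip is highest in cluster 1 with the doublet-rich cluster 18 next by the mean over mice (84.1 ± 98.0), and Cck is high in many clusters.

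The share of positive nuclei depended on how many UMIs a nucleus held. Without thinning, Sst was detected in 14.7% of cluster 4 and Cck in 35.4% of cluster 6, and Penk in 22.4% of cluster 10. After each nucleus was thinned to 1000 UMIs, Penk was positive in 9.04% of cluster 10, Vip in 3.18% of cluster 1, Tac1 in 2.89% of cluster 10, Npy in 2.28% of cluster 1 and Pdyn in 0.955% of cluster 10. Tac2 (0.825%) and Crh (0.432%) were highest in cluster 1 and Adcyap1 (0.812%) in cluster 3. Under thinning, the highest share of Sst (5.48%) and of Cck (13.7%) was in cluster 16, whose median nucleus held 1242 UMIs. In oligodendrocytes the thinned shares were 5.12% for Sst and 12.5% for Cck, so the cluster 16 shares were near the background. Sst in clusters 1 (4.09%) and 4 (3.53%) and Npy in its highest cluster were below the oligodendrocyte share, which was 2.71% for Npy. For the other genes the oligodendrocyte share was below that of the highest cluster, at 1.82% for Penk, 2.01% for Vip, 1.78% for Tac1, 0.115% for Pdyn, 0.617% for Tac2, 0.178% for Crh and 0.433% for Adcyap1. Cluster 16, led by Gabra6 and Fat2, made up 0.2% to 10.4% of the neurons of a mouse.

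Nuclei with 3 or more UMIs of a gene, a limit chosen after the data had been seen, were rarer in the background. The difference was smallest for Cck. The limit was not scaled for depth, and oligodendrocyte nuclei hold fewer UMIs. Such nuclei numbered 927 neurons for Sst, 808 for Vip, 420 for Npy, 1133 for Penk, 233 for Tac1 and 1587 for Cck. The counts were 83 for Tac2, 55 for Crh, 53 for Pdyn and 25 for Adcyap1. Among 75282 oligodendrocytes, 17 reached 3 UMIs of Sst, 5 of Npy, 4 of Tac1, 3 of Penk and 181 of Cck. No oligodendrocyte reached 3 UMIs of Vip, Pdyn, Tac2, Crh or Adcyap1, where the limit that a count of 0 allows, set at 3 counts, is 0.399 per 10000 nuclei. Per 10000 nuclei, Sst was at 52.3 in neurons and 2.26 in oligodendrocytes (exact 95% interval 1.32 to 3.62, counting error only), and Cck at 89.6 and 24.0 (20.7 to 27.8). The most UMIs in 1 neuron were 34 for Vip, 24 for Sst, 22 for Npy and Penk, 17 for Pdyn and 4 for Adcyap1.

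These nuclei gathered in few clusters. Of the 808 Vip nuclei, 77.1% were in cluster 1 and 15.0% in cluster 4. The authors called 75.2% of those in cluster 4 doublets, and of the 578 Vip nuclei left without doublets, 544 were in cluster 1 and 30 in cluster 4. Sst nuclei were 38.0% in cluster 1 and 53.3% in cluster 4, and Npy nuclei 41.7% and 49.8%. Doublets were 46.4% of the Sst nuclei of cluster 4 and 18.2% of those of cluster 1, and 56.5% and 13.7% of the Npy nuclei. Without doublets, a setting added after the data had been seen, the order of the counts turned, with 265 Sst nuclei in cluster 4 and 288 in cluster 1, and 91 and 151 Npy nuclei. The level per nucleus stayed higher in the deeper cluster 4 without doublets, at 252.6 UMIs of Sst per 1000 nuclei against 152.1 in cluster 1, and at 132.5 of Npy against 87.6. Of the Tac2 nuclei 60.2% were in cluster 1, and of the Crh nuclei 52.7%. Cluster 10 held 73.5% of the Penk nuclei, 42.9% of the Tac1 nuclei and 37.7% of the Pdyn nuclei. Clusters 1 and 4 together held more, 45.3% of the Pdyn nuclei (32.1% in cluster 4) and 45.5% of the Tac1 nuclei (27.0% in cluster 4). Of all UMIs of Tac1 in neurons, 44.0% were in clusters 1 and 4 and 21.1% in cluster 10. Cck nuclei were spread, with 22.1% in cluster 6, 17.2% in cluster 3 and 15.6% in cluster 5. Of those in cluster 6, 52.6% were doublets, against 10.6% in cluster 3. Without doublets the counts were 244 in cluster 3, 176 in cluster 5 and 166 in cluster 6, out of 18635, 11895 and 5635 nuclei. The level of Cck per nucleus stayed highest in cluster 6 without doublets. It was at 520.7 UMIs per 1000 nuclei there, 406.9 in cluster 5 and 401.3 in cluster 3. Of the 25 Adcyap1 nuclei, 64.0% were in clusters 1 and 4, with 13 in cluster 4, and 5 were in cluster 3, although 8.0% of the 25 held Gad1 or Gad2.

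**Figure D3:**
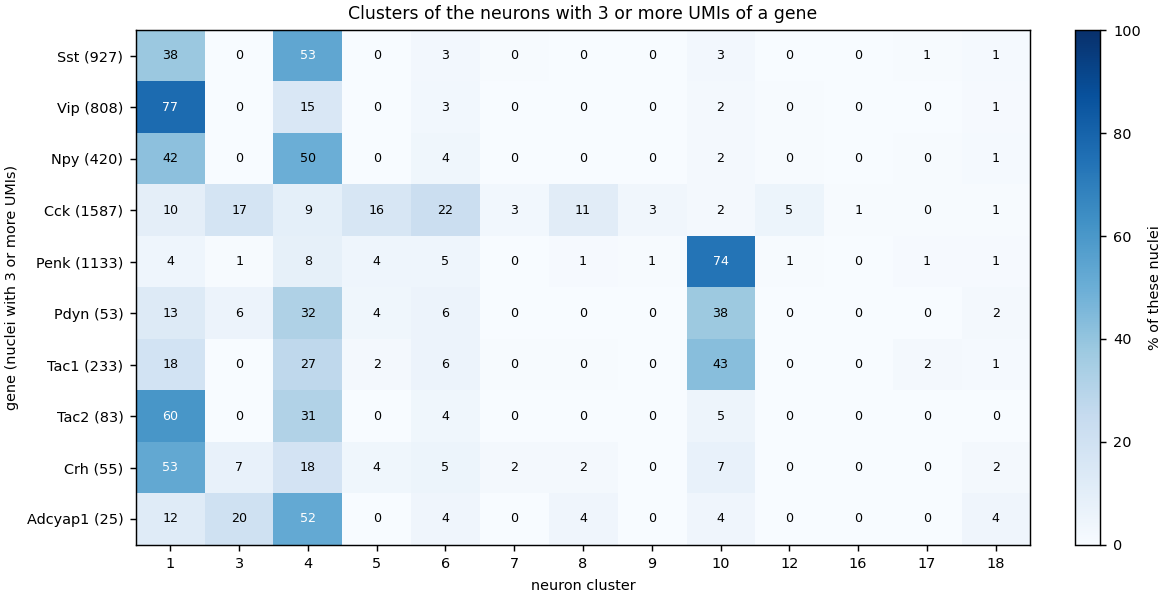
Share of the neurons with 3 or more UMIs of each gene (rows, with their number) that lay in each neuron cluster (columns), in percent by colour. Penk is darkest in cluster 10 (73.5%) and Vip in cluster 1 (77.1%), while Cck is spread over many clusters.

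Co-detection with Gad1 or Gad2, the enzymes that make GABA, or with Slc17a7, the vesicular glutamate transporter of cortical and hippocampal neurons, sorted the genes. In all neurons, Gad1 or Gad2 was detected in 26.3% and Slc17a7 in 38.1%. At 1 UMI or more of Sst the Gad share was 38.4%, and at 3 or more it was 80.4% (exact 95% interval 77.7 to 82.9). The shares at 3 or more UMIs were 85.0% for Npy (81.2 to 88.3), 78.2% for Vip (75.2 to 81.0) and 76.8% for Penk (74.2 to 79.2). They were 69.8% for Pdyn (55.7 to 81.7), 67.3% for Crh (53.3 to 79.3), 66.5% for Tac1 (60.1 to 72.6) and 55.4% for Tac2 (44.1 to 66.3). Cck and Adcyap1 were below all neurons, at 18.9% (17.005 to 20.9) and 8.0% (1.0 to 26.0). The other 8 genes stayed above the share of all neurons at every detection limit and thinning depth.

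Slc17a7 was most often found with Cck. It was detected in 56.6% of Cck nuclei (54.2 to 59.1) at 3 or more UMIs, up from 44.3% at 1 or more. Those at 3 or more were deeper, with a median of 6461 UMIs against 4856 in all neurons. Thinned to 1000 UMIs, the Slc17a7 share of positive nuclei was 12.3% for Cck and 10.6% for Adcyap1, against 10.9% in all neurons. At 3 or more UMIs, Slc17a7 was in 9.5% of Sst, 7.3% of Vip, 10.0% of Npy, 10.9% of Penk and 8.6% of Tac1 nuclei. It was in more of the Pdyn (13.2%), Crh (21.8%) and Tac2 (26.5%) nuclei. Adcyap1 nuclei held Slc17a7 in 36.0% (17.97 to 57.5) and Slc17a6, the transporter of subcortical glutamatergic neurons, in 40.0%, against 15.0% for Slc17a6 in all neurons. Slc17a6 was in 20.5% of Tac2, 16.3% of Tac1 and 15.8% of Cck nuclei, and in 3.5% (Vip) to 7.5% (Pdyn) of those of the other 6 genes. With the authors' doublets left out, the Gad shares were 78.0% for Sst, 76.0% for Vip and 76.0% for Penk, and the Slc17a7 shares 6.2%, 4.5% and 6.6%. The Slc17a7 share was then 10.0% for Crh, 4.9% for Npy and 4.0% for Tac1, and 15.0% for Pdyn, 23.8% for Tac2, 29.4% for Adcyap1 and 55.4% for Cck. Neither marker was found in 29.6% of Cck nuclei. Over mice, the Slc17a7 share of Cck nuclei ran from 43.2% to 81.5% with a median of 55.3% (n = 17). Neurons of 1 mouse share their library, and the intervals over nuclei cover counting error only.

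**Figure D4:**
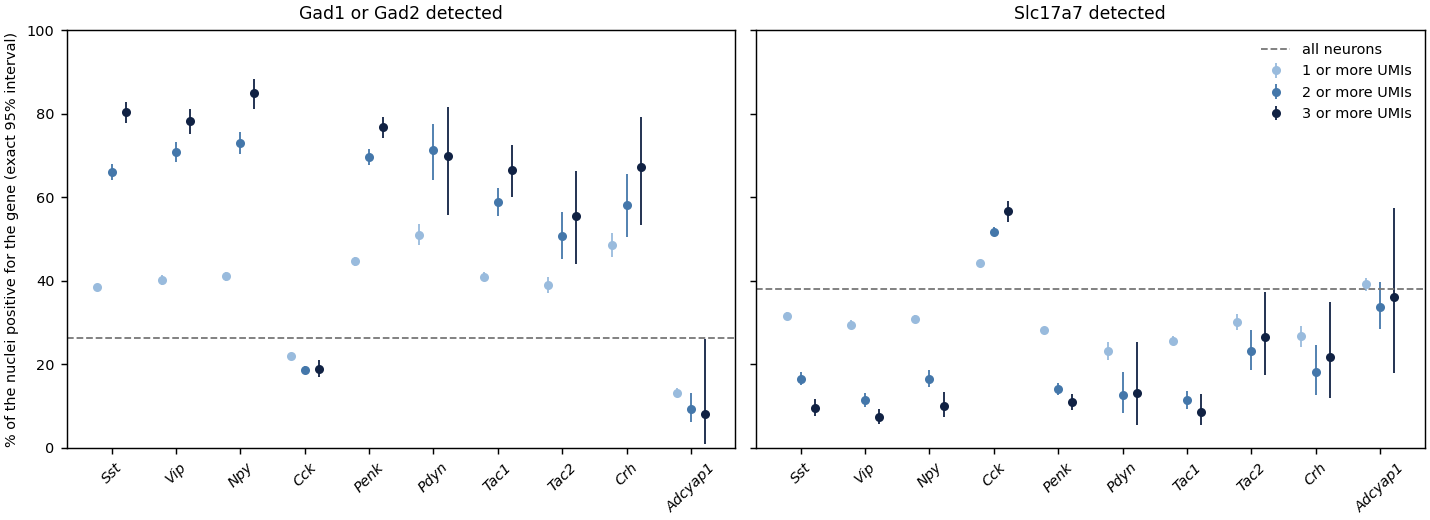
Percent of nuclei positive for each gene in which Gad1 or Gad2 (left) or Slc17a7 (right) was detected, by the UMIs required of the gene, with exact 95% intervals over nuclei. Dashed lines give all neurons (26.3% and 38.1%). The Gad share of Sst rises from 38.4% to 80.4%.

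Some neuropeptides were found together in the same nuclei, with doublets left in. The authors called 38.8% of the Sst, 41.7% of the Npy, 28.5% of the Vip, 27.3% of the Crh and 24.1% of the Tac2 nuclei doublets. Npy was detected in 38.9% of the 927 neurons with 3 or more UMIs of Sst, against 5.15% of all neurons, and Sst in 48.8% of the 420 Npy nuclei, against 8.80%. Within clusters 1 and 4, Npy was in 39.7% of 846 Sst nuclei and in 6.4% of nuclei without a UMI of Sst. Of 744 Vip nuclei there, 19.6% had Tac2 and 18.8% had Crh, against 1.9% and 0.8% of nuclei without Vip. Crh nuclei held Vip in 52.7% of 55, and Tac2 nuclei in 31.3% of 83. Vip nuclei held Sst in 7.3%, near the 8.80% of all neurons. Within clusters 1 and 4 this was 7.3% of Vip nuclei, below the 12.7% of nuclei without Vip.

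Genes that mark interneuron types differed between these nuclei, most clearly between those of Sst and Vip, while Npy nuclei held markers of both. Among Sst nuclei, Sox6 was detected in 77.8% (8.3% without Sst), Lhx6 in 26.1% (1.3%) and Reln in 55.7% (14.7%), and each share was above that of nuclei without Sst in 17 of 17 mice. Npy nuclei held Nos1, the neuronal nitric oxide synthase, in 39.8% (6.8% without Npy) and the substance P receptor gene Tacr1 in 29.8% (4.0%). They also held Adarb2 in 54.0% (34.6%), Sox6 in 45.2% (9.0%) and Prox1 in 30.0% (12.3%). Vip nuclei held Adarb2 in 98.5% (34.1% without Vip) and Prox1 in 60.5% (11.9%), and Lhx6 in 0.4%. Tac2 nuclei held Adarb2 in 74.7% (34.6% without Tac2) and Sox6 in 33.7% (9.3%), but Lhx6 in 0 of 83 (1.6%). Mobp, an oligodendrocyte gene, was in 7.1% of Vip nuclei and in 7.4% of neurons without Vip.

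Within cluster 10 the nuclei of Penk and of Tac1 and Pdyn differed in dopamine receptors. Of 833 Penk nuclei, 73.1% held Drd2 and 50.3% Adora2a, an adenosine receptor gene, while 2.2% held Drd1. In nuclei of cluster 10 without a UMI of Penk these shares were 7.3%, 3.9% and 16.1%. Of 100 Tac1 nuclei, 48.0% held Drd1 and 1.0% Drd2, against 11.4% and 18.7% without Tac1. Of 20 Pdyn nuclei, 60.0% held Drd1 (exact 95% interval 36.1 to 80.9) and none held Drd2 (up to 16.8). Tac1 was found in 60.0% of those Pdyn nuclei and in 9.5% of nuclei without Pdyn, and in 3.6% of the Penk nuclei. The Drd2 share of Penk nuclei was above that of nuclei without Penk in 17 of 17 mice, and the Drd1 share below it in 17 of 17.

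Mice differed from each other within groups. By UMIs per 1000 neurons, the highest mouse was 1.96 times the lowest for Adcyap1 and 4.39 times for Crh, and for the other genes between these. OTV:Malat1 replicate 2 was among the 3 highest of the 17 mice for 8 genes in neurons and for all 10 in oligodendrocytes. Anti-TfR:Malat1 replicate 5 was among the 3 lowest for 8 genes in both. Saline replicate 4 was among the 3 lowest for 7 genes in neurons and 6 in oligodendrocytes. Saline replicate 2 was among the 3 highest for 6 genes in neurons and 5 in oligodendrocytes, and anti-TfR:Malat1 replicate 2 for 6 in both. Other mice differed between the classes. Anti-TfR:Malat1 replicate 1 was among the 3 lowest for 8 genes in oligodendrocytes and 0 in neurons, and OTV:Malat1 replicate 3 for 8 genes in neurons and 2 in oligodendrocytes. Saline replicate 1 and Malat1 ASO replicate 1 were each among the 3 highest for 3 genes in neurons and 0 in oligodendrocytes. By the authors' batch numbers, both of these mice and anti-TfR:Malat1 replicate 1 were of batch 1. Saline replicate 4, anti-TfR:Malat1 replicate 5 and OTV:Malat1 replicate 3 were of batch 4. Malat1 ASO replicate 4 and anti-TfR:Malat1 replicate 6 were too, but were among the 3 lowest for 0 genes in neurons. Less the oligodendrocyte level of the same mouse, the mean of every member was lower after OTV:Malat1 than in saline, with overlapping groups. Sst was at 33.7 ± 9.40 UMIs per 1000 nuclei (SD, n = 3) against 45.3 ± 27.8 (n = 4), and Tac2 at 6.63 ± 4.71 against 7.96 ± 4.90. Against anti-TfR:Malat1 the order was mixed (Cck 80.7 and 119, Penk 49.3 and 46.0). These values are not scaled for depth, and the median neuron held 4337 UMIs after OTV:Malat1 and 5177 in saline (group means). The OTV:Malat1 mice were of batches 2, 3 and 4, while saline had a mouse in each of batches 1 to 4. Saline replicate 1, of batch 1, was the highest saline mouse for Tac2 (13.8) but not for Sst (50.1). Batch and treatment cannot be fully told apart in these means. The part of free RNA in the neuron values was not tested. Sums over neurons also cannot tell fewer cells of a type from less RNA per cell.

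Penk was the gene with the smallest p of the 10 in 3 of the 4 comparisons. Its level in neurons was 20.9, 20.4, 17.5 and 8.53 CPM in the saline mice and 19.7, 26.7, 13.7 and 19.5 CPM after Malat1 ASO. After anti-TfR:Malat1 it was at 10.4 CPM in the lowest mouse, 12.3 at the median and 14.5 in the highest of 6, and after OTV:Malat1 at 14.8, 25.2 and 10.7 CPM. Saline replicate 4 was below every anti-TfR:Malat1 mouse and the other 3 saline mice above every one, so the groups overlapped through that mouse. The log2 difference of anti-TfR:Malat1 from saline was -0.41 (SE 0.22, 95% interval -0.88 to 0.06), with an unadjusted p of 0.082 and an adjusted p of 1.0 (edgeR). For Malat1 ASO it was 0.25 (SE 0.25, interval -0.26 to 0.77) and for OTV:Malat1 -0.07 (SE 0.27, interval -0.63 to 0.50), which was -0.41 without OTV:Malat1 replicate 2. OTV:Malat1 against anti-TfR:Malat1 gave 0.35 (SE 0.25, interval -0.17 to 0.86), and 0.01 without that mouse. With the batch number as a term the anti-TfR:Malat1 difference was -0.35. In oligodendrocytes the differences from saline were 0.12 for Malat1 ASO, -0.24 for anti-TfR:Malat1 and 0.40 for OTV:Malat1 (SEs 0.29, 0.26 and 0.30). OTV:Malat1 against anti-TfR:Malat1 gave 0.64 there (SE 0.28, unadjusted p 0.031, adjusted p 0.99, edgeR). The sign was the same as in neurons in 3 of the 4 comparisons and opposite for OTV:Malat1 against saline.

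Pdyn was at 3.17, 2.39, 1.93 and 1.55 CPM in the saline mice, at 1.86, 2.62, 1.35 and 1.95 CPM after Malat1 ASO and at 1.45, 2.38 and 1.56 CPM after OTV:Malat1. In the 6 anti-TfR:Malat1 mice it ran from 1.253 to 2.37 CPM, with a median of 1.64. The groups overlapped. The log2 difference of OTV:Malat1 from saline was -0.40 (SE 0.27, 95% interval -0.96 to 0.16, unadjusted p of 0.147 by edgeR), that of anti-TfR:Malat1 -0.33 (SE 0.22, unadjusted p of 0.150) and that of Malat1 ASO -0.21 (SE 0.24). Without saline replicate 1 the 3 values were -0.20, -0.13 and -0.005, and without OTV:Malat1 replicate 2 the first was -0.60. Tac1 was at 7.96, 13.2, 9.16 and 5.67 CPM in saline and at 6.75, 19.9 and 5.22 CPM after OTV:Malat1, so that OTV:Malat1 replicate 2 was the highest of all mice. Its log2 difference of OTV:Malat1 from saline was 0.15 (SE 0.34, interval -0.55 to 0.86) and was -0.60 without that mouse (unadjusted p of 0.048, edgeR, adjusted p 1.0).

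Among the interneuron genes, Sst was at 16.9, 32.9, 20.6 and 12.3 CPM in the saline mice and at 19.8, 37.4 and 17.2 CPM after OTV:Malat1. Its log2 difference was 0.19 (SE 0.33, 95% interval -0.50 to 0.89), but -0.17 without OTV:Malat1 replicate 2 and 0.49 without saline replicate 2. After anti-TfR:Malat1 the lowest mouse was at 9.66 CPM, the median at 19.9 and the highest at 29.0, so that the groups overlapped. Vip was at 10.3, 13.6, 10.2 and 8.18 CPM in saline, and its differences ran from -0.06 (OTV:Malat1) to 0.18 (anti-TfR:Malat1), with SEs of 0.28 to 0.33. The highest mice for Vip were anti-TfR:Malat1 replicate 3 at 19.4 CPM and Malat1 ASO replicate 1 at 17.6 CPM. Npy, at 9.96, 20.5, 9.86 and 6.83 CPM in saline, differed by 0.21 after OTV:Malat1 (SE 0.34). That was 0.60 without saline replicate 2 (unadjusted p of 0.071, edgeR) and -0.11 without OTV:Malat1 replicate 2. Crh was at 1.49, 2.73, 1.13 and 1.53 CPM in saline and had the widest SEs, from 0.34 to 0.40. Malat1 ASO replicate 1 was at 3.16 CPM for Crh and the other 3 mice of that group at 1.22, 1.16 and 1.24. Tac2 (3.21, 3.63, 3.08 and 1.76 CPM in saline) differed by 0.11, -0.05 and 0.19 after Malat1 ASO, anti-TfR:Malat1 and OTV:Malat1, the last of which was -0.37 without OTV:Malat1 replicate 2. Cck (44.6, 67.4, 67.2 and 44.4 CPM in saline) and Adcyap1 (3.97, 5.41, 4.90 and 3.91 CPM) had Gad shares below that of all neurons. Both differed from saline by 0.16 at most in either direction. Cck had the widest spread after anti-TfR:Malat1, from 30.4 to 97.3 CPM with a median of 59.4. For Adcyap1, the narrowest interval ran from -0.38 to 0.33 (anti-TfR:Malat1).

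**Figure D5:**
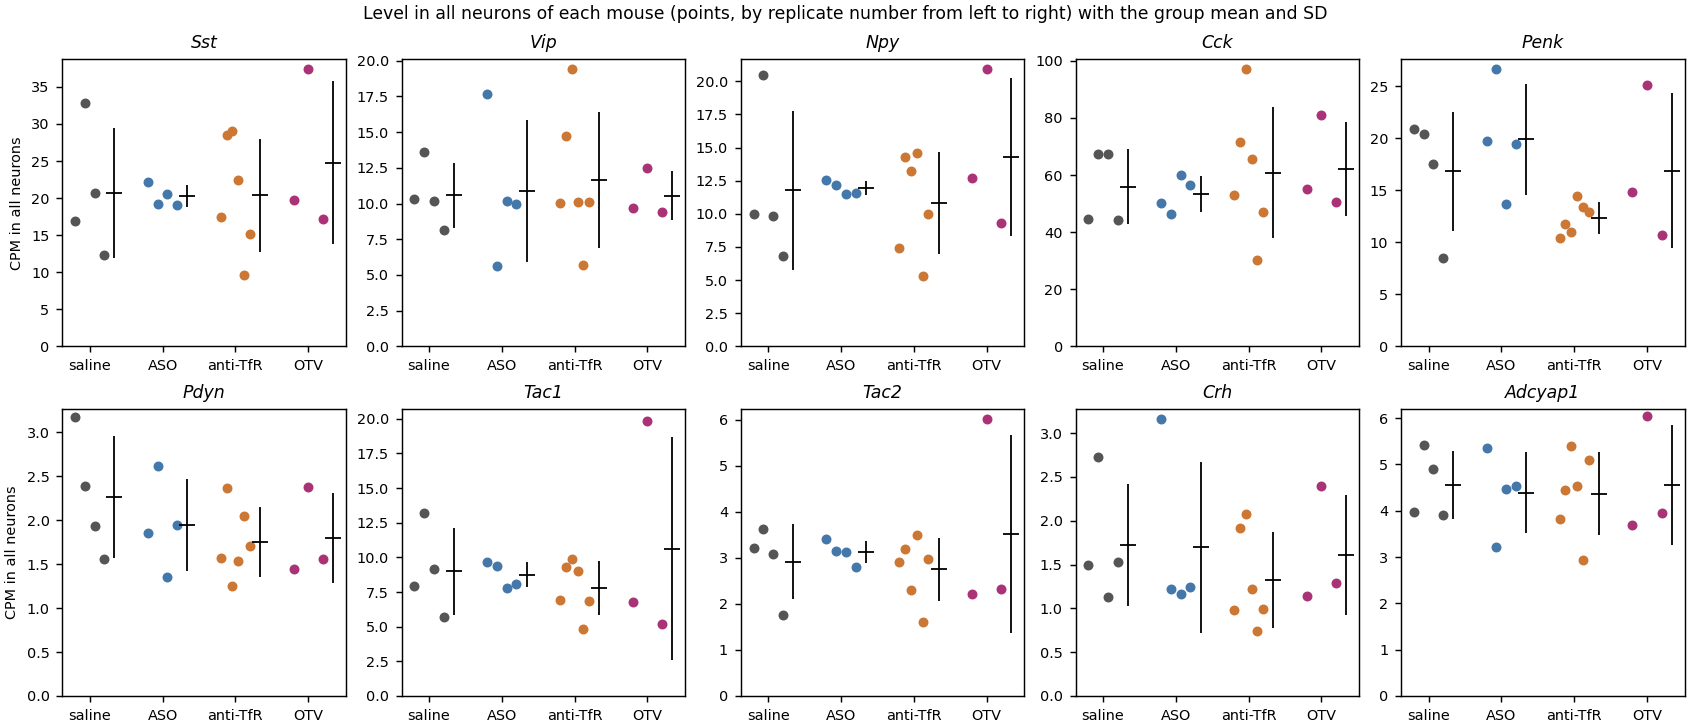
CPM in all neurons (y axis) of each gene in the saline, Malat1 ASO, anti-TfR:Malat1 and OTV:Malat1 groups, with 1 point per mouse and the group mean and SD. The groups overlap for every gene, and OTV:Malat1 replicate 2 (the middle OTV point) is high for Tac1 (19.9) and Sst (37.4).

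None of the 10 genes passed an adjusted p of 0.05 in any of the 4 comparisons (edgeR's quasi-likelihood test on UMIs summed per mouse). Nor did any of the 20728 genes tested, the targeted Malat1 among them, so the share called was 0% in each. At an unadjusted p under 0.05, 0 members stood against 0.632% of genes for Malat1 ASO, 1.23% for anti-TfR:Malat1, 1.16% for OTV:Malat1 and 2.06% for OTV:Malat1 against anti-TfR:Malat1. Each share is below the 0.05 that evenly spread p-values would give, so 0 of 10 members does not set them apart from other genes. DESeq2 called 0 genes too, with 90, 221, 231 and 419 genes at an unadjusted p under 0.05 and no member among them. The comparisons against saline share the saline mice. The median member difference was -0.02, -0.07, 0.01 and 0.17 in the 4 comparisons, beside 0.00, 0.00, 0.00 and 0.01 over all genes tested. These medians changed sign when single mice were left out, a calculation added after the data had been seen. The last was -0.25 without OTV:Malat1 replicate 2, with 1 of 10 genes above 0 in place of 6, and OTV:Malat1 against saline was then -0.32, with 0 above 0 in place of 5. Without saline replicate 2 the differences from saline had medians of 0.21, 0.06 and 0.16. No member had groups that did not overlap in normalised CPM, against 0.695%, 0.265%, 2.83% and 1.07% of all genes. The SEs of the member differences ran from 0.17 to 0.40, and a p above the threshold does not show that levels were equal.

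Within clusters, 89 of the 130 pairs of a member and a cluster could be tested, and 0 were called in any comparison, against 0% of the 165148 pairs of a gene and a cluster. Of the 89 member pairs, 2 had an unadjusted p under 0.05 for Malat1 ASO, 2 for anti-TfR:Malat1, 3 for OTV:Malat1 and 4 for OTV:Malat1 against anti-TfR:Malat1. Over all genes the shares were 1.53%, 2.39%, 2.61% and 3.43%, and the member pairs were near these. Penk in cluster 10 was at 161.8, 126.2, 139.2 and 64.6 CPM in the saline mice and between 83.9 and 101.9 CPM in the 6 anti-TfR:Malat1 mice. Its log2 difference was -0.40 (SE 0.18, 95% interval -0.77 to -0.02, unadjusted p of 0.038 and adjusted p of 1.0, edgeR). Saline replicate 4 was again the lowest. Cluster 10 itself made up 7.3% to 8.2% of neurons in saline and 3.4% to 7.7% after anti-TfR:Malat1, and its part in the sum over neurons was not tested. The smallest p was that of Tac1 in cluster 12 for OTV:Malat1 against anti-TfR:Malat1, a difference of 1.21 (SE 0.37, unadjusted p 0.0035, adjusted p 0.90, edgeR). It rested on 47 UMIs in OTV:Malat1 replicate 2, against 3 to 14 in the anti-TfR:Malat1 mice. Tac1 in cluster 12 was at the background, at 1.01 times the oligodendrocyte level and above it in 9 of 17 mice. The highest mouse held 64.6 UMIs of Tac1 per 1000 nuclei of cluster 12, while oligodendrocytes of OTV:Malat1 replicate 2 held 69.5.

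The genes that make, store and read these peptides were examined as lists: 21 receptor genes with Crhbp among them, 12 processing and release genes and 18 other neuropeptide genes. Of these 20, 12 and 16 could be tested, and none was called in any comparison. By level, receptors differed in how far the first cluster stood above the second. Vipr2, a receptor of vasoactive intestinal peptide and PACAP, was at 542.1 UMIs per 1000 nuclei in cluster 12, 64.4 in cluster 17 and 32.7 in all neurons. Oprm1, the mu opioid receptor gene, was at 1346 per 1000 in cluster 7, 975.6 in cluster 6 and 534.3 in all neurons. Tacr1 was at 205.1 in cluster 4 and 116.9 in cluster 1. Crhr1, the corticotropin-releasing hormone receptor gene, was at 313.2 in cluster 3 and 252.9 in cluster 6. The convertase gene Pcsk2 was at 7688 and the vesicle priming gene Cadps at 10324 per 1000 nuclei in cluster 6, the deepest (median 8073 UMIs), and at 3811 and 5945 in all neurons. Oxt and Avp, the oxytocin and vasopressin genes, were at 19.6 and 18.5 per 1000 neurons and at 16.1 and 11.9 per 1000 oligodendrocytes. In oligodendrocytes Vipr2 was at 1.57, Oprm1 at 7.21 and Tacr1 at 1.22 per 1000 nuclei.

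The smallest p in each list was unadjusted and no gene passed after adjustment. For OTV:Malat1 against anti-TfR:Malat1 these were Npy2r, a neuropeptide Y receptor gene, with a log2 difference of 0.28 (unadjusted p 0.029), Pam, the peptide amidating enzyme gene, with -0.16 (0.043) and Avp with 1.59 (0.022), by edgeR. Avp was at 2.53, 11.9 and 2.52 CPM in the OTV:Malat1 mice and at 0.211 to 5.37 CPM in the anti-TfR:Malat1 mice, so the groups overlapped and OTV:Malat1 replicate 2 stood high. Against saline they were Crhr1, Pam and Cartpt for anti-TfR:Malat1, of which Cartpt was at -0.50 (unadjusted p 0.044, edgeR). For OTV:Malat1 against saline they were Npy2r, Pcsk1 and Pthlh, and for Malat1 ASO Cckar, Pcsk1 and Calca. The median difference of the other neuropeptide genes was -0.003, -0.17, 0.22 and 0.37 in the 4 comparisons, with 13 of 16 above 0 in the last. Without OTV:Malat1 replicate 2 the last 2 medians were -0.23 and -0.21, with 3 and 5 of 16 above 0. The median after anti-TfR:Malat1 was -0.06 without saline replicate 2 and -0.03 without saline replicate 3. For OTV:Malat1 against anti-TfR:Malat1, 2 of 12 processing genes (median -0.11) and 8 of 20 receptor genes (median -0.03) were above 0, and the median of all genes was 0.01.

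The genes whose level over the 13 clusters was most like that of a member were found by Pearson correlation of log2(CPM + 1) over 11811 genes, a description over points that share libraries and depth. For Pdyn they were Slco5a1 (0.92) and Ankdd1a (0.89), and for Penk Tomm70a (0.96) and Gm13974 (0.95). For Tac1 they were Frem2 and Igfbpl1 (both 0.94), and for Adcyap1 Mapre2 and Cbln4 (both 0.88). For Sst they were Lamtor3 and Gm9856 (both 0.98), and for Cck Bub3 (0.93) and Fjx1 (0.90). Vip and Tac2 shared Ubr7 (both 0.96), beside Gtpbp4 (0.94) and Clpp (0.96). Npy had Malsu1 and Nop14 (both 0.97), and Crh had Kmt2a (0.92) and 1110032A03Rik (0.91). Of these, Lamtor3, Gm9856, Gtpbp4, Bub3, Fjx1, Kmt2a and Mapre2 were highest in the shallow cluster 16.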

How the data were processed

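Nuclei from frozen posterior brain were captured on the 10x Chromium, per the labels' protocols. The authors deposited 1 matrix of integer UMI counts (26131 genes, 284074 nuclei of 500 or more UMIs) with metadata. The submitters' processing notes name mm10, Cell Ranger 6.0.1 and Seurat 4. The cell labels, clusters (resolution 0.4), doublet calls and batch numbers are the authors' own, and the sources used here do not say what a batch is. Saline carries a dose label of the conjugates, read here as the vehicle of that schedule.

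Neurons were nuclei labelled Neurons in the clusters where most nuclei carried that label, except cluster 13 (led by Pdgfra and Vcan), which left 13 clusters. Clusters 17 and 18, also led by glial genes, were kept. Taking all nuclei labelled neurons, or leaving out clusters 17 and 18 (added after the data had been seen), were alternatives, and neither called a gene or moved a member's log2 value by its SE. CPM was computed here from the deposited counts, as UMIs of the gene per 1000000 UMIs of the class. UMIs were summed per mouse and fitted over all 17 mice together with edgeR 4.0.16 (filterByExpr, TMM, glmQLFit, glmQLFTest) in R 4.3.3, two-sided, with Benjamini-Hochberg adjustment over all genes and a threshold of 0.05. Clusters needed 20 nuclei per mouse. Shares were thinned to 1000 UMIs per nucleus. DESeq2 1.42.0, other scalings, filters, doublets left out, batch or replicate blocks and leaving out each mouse were alternatives. The fit was tested on data simulated without batch differences, for OTV:Malat1 against saline. It recovered 160 of 200 changed genes and called 6 unchanged ones. In the real data mice of the same batch deviated together, so these rates do not carry over. Each mouse was 1 library. Other steps used Python 3.11.15 with numpy 2.4.6 and scipy 1.17.1, and figures matplotlib 3.10.9.

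The members and gene lists were chosen with earlier results of these data known. All 10 members are named, and of each list the gene of smallest p in each comparison. Some further list genes are named for their level, by no set rule. For likeness, the 2 genes of highest correlation are named, among those of 10 CPM or more in a cluster.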

Additional observations from a re-analysis of the deposited data

Results flagged for a closer look

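In 99 groups of 4 to 6 mice looked at, 7 had 1 mouse apart from the others by Dixon's 95% limit, and chance gives about 1 in 20. Neurons with 3 or more UMIs of Pdyn were at 14.7 per 10000 in saline replicate 1 (12 nuclei) and at 8.50 in anti-TfR:Malat1 replicate 2 (10 nuclei), each the highest of its group. Pdyn in oligodendrocytes was highest in Malat1 ASO replicate 4, at 2.26 CPM. Crh in neurons was at 3.16 CPM in Malat1 ASO replicate 1, and its neurons with 3 or more UMIs at 15.2 per 10000 (13 nuclei), where the other 3 mice of that group had 1 or 2 such nuclei. Adcyap1 in oligodendrocytes was lowest in saline replicate 1, at 1.69 CPM. Cluster 16 made up 10.4% of the neurons of Malat1 ASO replicate 3.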

How the results depend on the processing

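No member, receptor, processing or other peptide gene was called under any of the 29 settings that each count was run under, the reported one included, in 348 counts. Of 1120 log2 values, 1037 kept the sign of the reported one and 20 moved by their SE or more, 16 of these when 1 mouse was left out. Most moved without OTV:Malat1 replicate 2 or saline replicate 2: for OTV:Malat1 against anti-TfR:Malat1, Tac1 went from 0.32 to -0.43 and Penk from 0.35 to 0.01, and for anti-TfR:Malat1 against saline, Npy went from -0.08 to 0.31. Penk after anti-TfR:Malat1 depended on single saline mice both ways: it was -0.62 without saline replicate 4 (unadjusted p 0.0055), -0.29 without replicate 1 (0.248) and -0.32 without replicate 2 (0.213), with an adjusted p of 1.0 each (edgeR). The cause was not tested.

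With the replicate block, 0 genes were called, with 118, 687, 289 and 896 at an unadjusted p under 0.05 in the order of the comparisons, against 131, 254, 241 and 426. Cck after anti-TfR:Malat1 then differed by 0.40 (unadjusted p 0.018, adjusted p 1.0, edgeR) and Sst by 0.33. Over all groups, same-numbered mice correlated from -0.54 to 0.60 (median 0.03, 21 pairs), and 5 of 17 correlated best with their own number. For Malat1 ASO and saline the number was also the batch number in 4 of 4 pairs, which correlated from -0.02 to 0.60 (median 0.45, 3 of 4 above 0.1). For anti-TfR:Malat1 and saline it was in 3 of 4 pairs (-0.39 to 0.42), and for OTV:Malat1 in 0 of 3 with either group. Mice of the same batch did deviate together (median correlation 0.29, lowest -0.06, 27 pairs) against a median of -0.08 over 79 pairs of different batches, and the reported fits have no batch term. With batch as a block 0 genes were called and there were 194, 435, 430 and 899, and with no filter 257, 408, 381 and 551. Without saline replicate 4 there were 439 for anti-TfR:Malat1, and without OTV:Malat1 replicate 3 there were 1345 for OTV:Malat1 against anti-TfR:Malat1.

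Of 170 shares of positive nuclei, 141 moved by their SD over mice or more with thinning or the UMIs required.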
